A study of Mus musculus with 6 samples.

Results

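Mural cells are the contractile cells that wrap the endothelial tube of a blood vessel. Smooth muscle cells lie in rings around arterioles and set their width through actin and myosin filaments, whereas pericytes sit along capillaries in the same basement membrane as the endothelium, help to form the blood-brain barrier and carry little contractile protein. Pericytes are held on the vessel by platelet-derived growth factor B from endothelial cells, which binds PDGFRβ, and Notch3 signaling keeps arterial smooth muscle in its mature state. The mural cell markers described here are 10 genes: *Acta2*, *Tagln*, *Myh11* and *Des*, which code for contractile or cytoskeletal proteins, and *Pdgfrb*, *Rgs5*, *Notch3*, *Vtn*, *Abcc9* and *Higd1b*, which are used as markers of pericytes or of mural cells in general. They were chosen by symbol through their Ensembl identifiers, and all 10 were found among the 22322 genes of the deposited count table.

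The samples were arcuate nucleus (ARC) tissue of male mice that at 4 weeks of age were put on NCD (normal chow with 16.5% fat) or HFD (high-fat chow with 60% fat) and kept on it for 16 weeks. The ARC was cut by laser capture microdissection (LCM) from frozen brain sections of 20 μm, and poly(A) RNA was sequenced in 3 samples per diet (NCD1 to NCD3, HFD1 to HFD3). Nothing in the sources says whether each sample came from a separate mouse, so p-values measure the spread between these samples only. The labels give no strain for the sequenced mice, and the study's methods list C57BL/6J wild type mice beside the Kiss1-Cre and R26R-EYFP lines used to locate the area. Library totals were 15925648, 9937632 and 6882449 counts for NCD1 to NCD3 and 8024664, 10479778 and 5171381 counts for HFD1 to HFD3, so that 3 counts corresponded to 0.188 CPM (counts scaled to the library total, in later values with TMM factors) in the largest library and to 0.58 CPM in the smallest. Markers of the ARC were present in every library: *Pomc* lay between 499.99 and 1209 CPM and *Agrp* between 27.2 and 87.3 CPM.

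Among the contractile markers, *Acta2* was 1.78-fold lower and *Tagln* 2.07-fold lower under HFD, and in CPM no HFD sample of either gene reached an NCD sample. *Myh11* and *Des* had log2 fold changes (HFD against NCD) of -0.56 and -0.46 with overlapping samples. The 6 other markers had log2 fold changes from -0.23 for *Notch3* to 0.15 for *Higd1b*. None of the 10 passed an adjusted p of 0.05 in edgeR's quasi-likelihood test over the 14188 genes tested, of which 8 (0.0564%) did, 0.0493% as lower. At the threshold of the study's methods (p under 0.05 without adjustment and a fold change above 1.5), 2 of the 10 members were called, both lower, where 0.888% of all genes tested were called lower, 1.01% higher and 1.90% in either direction. The groups did not overlap for 2 of the 10 members, again *Acta2* and *Tagln*, beside 3.24% of all genes tested whose HFD samples all lay below the NCD samples and 6.47% without overlap in either direction. All 10 members passed the filter on low counts. Both genes are also in the study's own list of changed genes from these samples, so these counts are not independent evidence. In bulk tissue, fewer cells of a type and less RNA per cell cannot be told apart.

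**Figure D1:**
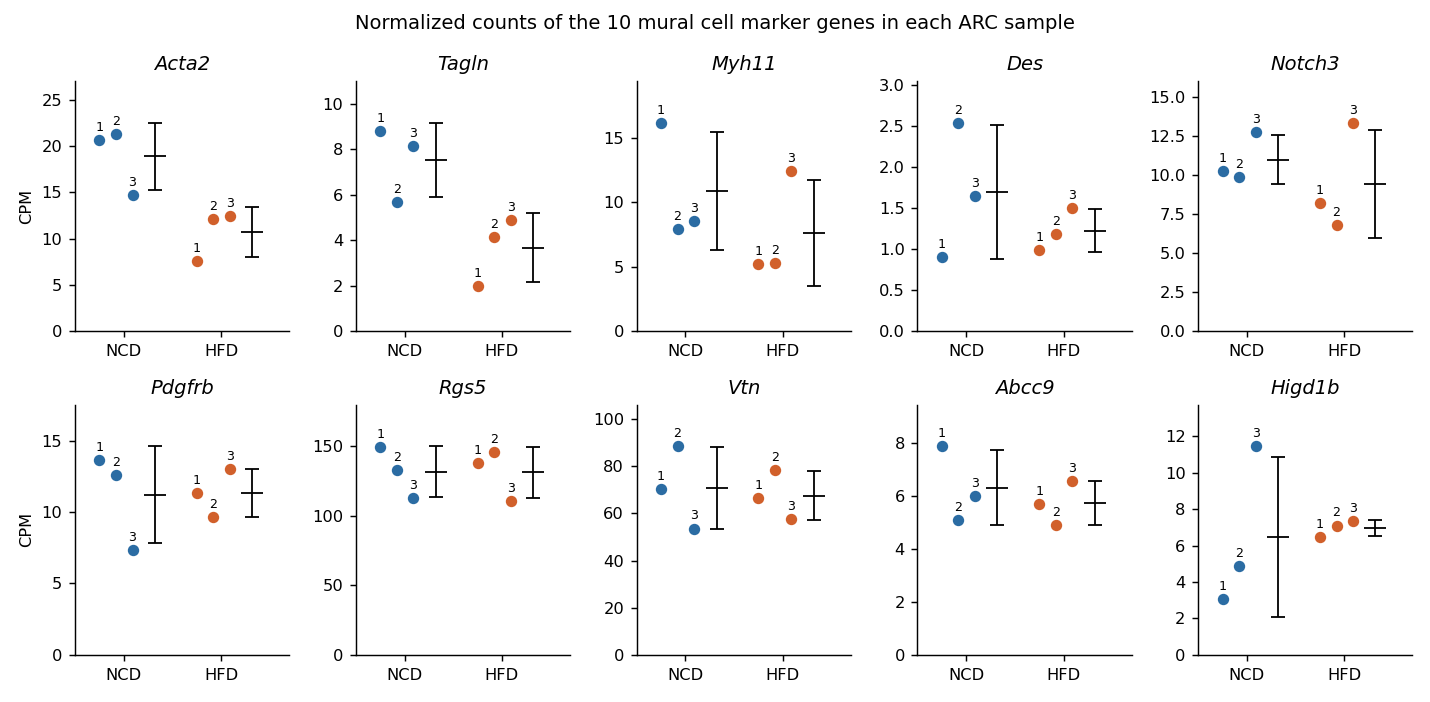
Normalized counts in CPM (y axes, each starting at 0) of the 10 mural cell markers in the 3 NCD samples (blue) and the 3 HFD samples (orange); digits are replicate numbers, and the black bar beside each group is the mean ± SD. *Acta2* and *Tagln* have no HFD sample at or above an NCD sample, and the samples of the other 8 genes overlap.

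*Acta2* codes for smooth muscle α-actin, the thin filament protein of vascular smooth muscle (GRCm38, chr19:34241090-34255590, minus strand). Its level was 20.7, 21.3 and 14.7 CPM in NCD1 to NCD3 against 7.58, 12.1 and 12.4 CPM in HFD1 to HFD3. The groups did not overlap, and HFD1 was the lowest sample. The means were 18.9 ± 3.62 CPM (SD, n = 3) for NCD and 10.7 ± 2.71 CPM (SD, n = 3) for HFD. The log2 fold change was -0.83 with a standard error of 0.28 and a 95% interval from -1.43 to -0.23 (edgeR, adjusted p = 0.999). Without adjustment edgeR gave p = 0.0107, which ranked 69 among all genes tested, and the exact permutation test on log2 CPM gave p = 0.1, the smallest possible with 3 samples against 3. Without HFD1 the log2 fold change was -0.63 which did not pass the threshold. The gene rested on 61 to 344 counts per library.

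The other muscle actins, *Actg2*, *Acta1* and *Actc1*, resemble *Acta2* in coding sequence, so its coding bases 10 to 69 are shown beside the matching 60 bases of each. This is the stretch of 60 in which *Acta2* and *Acta1*, the closest to it of these 3, differ most, so reads there are the easiest to tell apart. Capitals mark the bases that differ from *Acta2*, and the sequences are from the transcripts of GENCODE M21.
Acta2: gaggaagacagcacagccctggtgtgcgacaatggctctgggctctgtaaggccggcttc
Actg2: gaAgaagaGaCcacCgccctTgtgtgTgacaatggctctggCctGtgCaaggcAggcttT
Acta1: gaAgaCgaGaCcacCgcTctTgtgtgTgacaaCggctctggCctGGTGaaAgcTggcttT
Actc1: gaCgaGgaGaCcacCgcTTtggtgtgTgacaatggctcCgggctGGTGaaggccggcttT
In this stretch *Actg2*, the enteric smooth muscle actin, differed from *Acta2* at 11 of 60 bases, *Acta1* of skeletal muscle at 17 and *Actc1* of heart at 14. Over the 1131 coding bases compared, identity with *Acta2* was 85.3% for *Acta1*, 83.8% for *Actg2* and 82.5% for *Actc1*. Of all stretches of 50 bases in *Acta2* transcripts, 0.326% also occur in another gene (*Actg1*, the cytoplasmic γ-actin, and *Actg-ps1*, *Gm12715*, *Gm16385* and *Gm6375*), and of stretches of 100 bases none does. *Acta1* averaged 8.68 CPM in NCD and 10.04 CPM in HFD with overlapping samples (log2 fold change 0.20, edgeR p = 0.514, exact permutation p = 0.5). *Actg2* had 0 to 2 counts per library and *Actc1* 0 to 11, too few to be tested.

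*Tagln* codes for transgelin (SM22α), an actin-binding protein of smooth muscle (chr9:45929619-45936058, minus strand). Its level was 8.79, 5.70 and 8.13 CPM in NCD1 to NCD3 against 1.99, 4.14 and 4.89 CPM in HFD1 to HFD3. The groups did not overlap, and HFD1 was again the lowest. The means were 7.54 ± 1.63 CPM (SD, n = 3) and 3.67 ± 1.51 CPM (SD, n = 3), and the log2 fold change was -1.05, with a standard error of 0.39 and a 95% interval from -1.90 to -0.20 (edgeR, adjusted p = 0.999). Without adjustment edgeR gave p = 0.0192, and the exact permutation test gave p = 0.1. The gene rested on 16 to 146 counts per library. Without HFD1 the log2 fold change was -0.75 and without NCD1 -0.93, and neither passed the threshold.

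*Tagln* overlaps other genes, and how the authors' tools divided reads between them was not tested. On the opposite strand lie *Pcsk7*, a proprotein convertase gene, and *Gm48529*, which together cover at most 67.9% of the exon bases of *Tagln*. In that share, bases overlapped by both genes are counted for each. Of the stretches of 50 bases in *Tagln* transcripts, read on either strand, 58.3% also occur in another gene. The library kit named in the labels does not mark strand. *Pcsk7* was at 22.5, 15.6 and 13.99 CPM in NCD1 to NCD3 and at 12.7, 15.9 and 15.6 CPM in HFD1 to HFD3, with a log2 fold change of -0.25 (edgeR p = 0.356, exact permutation p = 0.6). The summed counts of both genes, of which *Tagln* made up from 13.6% to 36.7% in a library, had a log2 fold change of -0.44 in edgeR, which did not pass the threshold and rests mostly on *Pcsk7*. In the deposited FPKM values (fragments scaled to transcript length and mapped reads) *Tagln* was 5.98, 3.55 and 4.94 in NCD1 to NCD3 and 1.21, 4.14 and 3.15 in HFD1 to HFD3. There HFD2 lay above NCD2, so that on this scale the groups overlapped, whereas for *Acta2* they did not. Of the other members, *Notch3* shares 4.93% of its stretches of 50 bases with other genes, *Des* 4.61%, *Abcc9* 1.95% and *Myh11* 0.340%, and *Pdgfrb*, *Rgs5*, *Vtn* and *Higd1b* share none.

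*Myh11* codes for the heavy chain of smooth muscle myosin, the thick filament partner of α-actin and a gene of mature smooth muscle (chr16:14194535-14291372, minus strand). It was at 16.2, 7.94 and 8.58 CPM in NCD1 to NCD3 and at 5.22, 5.32 and 12.4 CPM in HFD1 to HFD3. HFD1 and HFD2 lay below every NCD sample and HFD3 above NCD2 and NCD3, so the groups overlapped. The log2 fold change was -0.56 with a 95% interval from -1.43 to 0.32 (edgeR p = 0.193, exact permutation p = 0.3), a range that holds both no difference and one as large as that of *Tagln*. Without HFD3 it was -1.06, past the threshold, and without NCD1 it was -0.15. *Des*, the gene for desmin, the intermediate filament of muscle cells (chr1:75360329-75368579, plus strand), was at 0.903, 2.54 and 1.66 CPM in NCD1 to NCD3 and at 0.994, 1.18 and 1.51 CPM in HFD1 to HFD3. With 8 to 25 counts per library it was the least deeply measured member, and its interval ran from -1.68 to 0.76 around a log2 fold change of -0.46 (edgeR p = 0.429, exact permutation p = 0.5).

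*Rgs5* codes for a regulator of G protein signaling that is abundant in pericytes (chr1:169655501-169695813, plus strand). It was at 149, 133 and 113 CPM in NCD1 to NCD3 and at 138, 146 and 111 CPM in HFD1 to HFD3. The means, 131.6 ± 18.3 CPM and 131.4 ± 18.4 CPM (SD, n = 3 each), differed by much less than the spread of either group. The log2 fold change was -0.0022 with a 95% interval from -0.45 to 0.44 (edgeR p = 0.991, exact permutation p = 1). This interval overlaps that of *Acta2*, from -1.43 to -0.23, and a difference between the 2 genes was not tested. *Pdgfrb*, the receptor for platelet-derived growth factor B (chr18:61045150-61085061, plus strand), was at 13.7, 12.6 and 7.37 CPM in NCD1 to NCD3 and at 11.3, 9.66 and 13.0 CPM in HFD1 to HFD3. All HFD samples lay inside the NCD range, with a log2 fold change of -0.0072 and an interval from -0.65 to 0.63 (edgeR p = 0.981, exact permutation p = 0.9).

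*Vtn* codes for vitronectin, an adhesive matrix protein secreted by pericytes in the brain (chr11:78499091-78502324, plus strand). It was at 70.4, 88.4 and 53.6 CPM in NCD1 to NCD3 and at 66.6, 78.2 and 57.8 CPM in HFD1 to HFD3. The groups overlapped, and in both the second sample was the highest and the third the lowest (log2 fold change -0.067, interval -0.55 to 0.42, edgeR p = 0.769, exact permutation p = 0.9). *Notch3*, the Notch receptor of mural cells (chr17:32120820-32166852, minus strand), was at 10.3, 9.87 and 12.8 CPM in NCD1 to NCD3 and at 8.20, 6.80 and 13.4 CPM in HFD1 to HFD3. HFD1 and HFD2 were below all NCD samples and HFD3 above them all (log2 fold change -0.23, interval -0.90 to 0.44, edgeR p = 0.473, exact permutation p = 0.5).

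*Abcc9* codes for SUR2, the regulatory subunit of the ATP-sensitive potassium channel of mural cells (chr6:142587862-142702315, minus strand). It ranged from 5.09 to 7.89 CPM in NCD and from 4.93 to 6.59 CPM in HFD (log2 fold change -0.16, interval -0.87 to 0.55, edgeR p = 0.638, exact permutation p = 0.6). *Higd1b*, a gene of the hypoxia-induced domain family used as a pericyte marker (chr11:102835849-102838040, plus strand), was at 3.07, 4.89 and 11.4 CPM in NCD1 to NCD3 and at 6.46, 7.10 and 7.34 CPM in HFD1 to HFD3. The HFD samples lay close together, inside the wide NCD range, and the coefficient of variation was 68.1% in NCD and 6.49% in HFD. Its log2 fold change of 0.15 (interval -0.80 to 1.10, edgeR p = 0.742, exact permutation p = 0.7) was 0.82 without NCD3 and -0.22 without NCD1, so that its sign was set by single libraries.

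**Figure D2:**
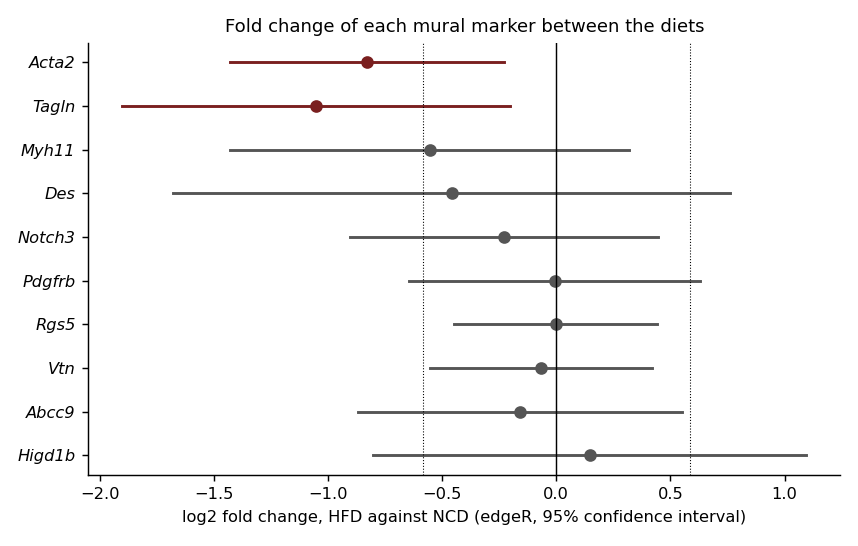
Log2 fold change (HFD against NCD, x axis) of each of the 10 markers, with the 95% interval of the edgeR fit as the line; dark red marks genes that passed p under 0.05 and the 1.5-fold limit drawn as dotted lines. *Acta2* and *Tagln* are the members whose intervals lie below 0, and *Rgs5* and *Pdgfrb* sit at 0.

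Per length of transcript, the markers covered a wide range of levels. In the deposited FPKM values, averaged over all 6 samples, *Vtn* was highest at 39.6 ± 7.24 (SD, n = 6), followed by *Rgs5* at 32.4 ± 4.25, *Higd1b* at 10.3 ± 4.50, *Acta2* at 7.48 ± 2.99 and *Tagln* at 3.83 ± 1.63. Below these came *Pdgfrb* at 2.10 ± 0.494, *Myh11* at 1.43 ± 0.708, *Notch3* at 1.43 ± 0.402, *Abcc9* at 0.852 ± 0.176 and *Des* at 0.482 ± 0.194 FPKM. Among neighbours in this order, *Rgs5* and *Higd1b* were the one pair whose samples did not overlap. *Myh11* and *Notch3* could not be ordered, since *Myh11* was the higher in 2 of 6 samples. The standard error of the log2 fold change was lowest for *Rgs5* (0.21), the member with the most counts, and highest for *Des* (0.56), the one with the fewest, but *Myh11* (0.40) had a larger error than *Abcc9* (0.33) with more counts.

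Summed over *Acta2*, *Tagln*, *Myh11* and *Des*, the contractile members took 46.6, 37.5 and 33.1 CPM in NCD1 to NCD3 and 15.8, 22.8 and 31.2 CPM in HFD1 to HFD3. The groups did not overlap, but HFD3 lay just below NCD3, and *Acta2* made up 47.5% of the sum. The 6 other members summed to 254.6, 253.5 and 204.0 CPM in NCD1 to NCD3 and to 236.1, 252.4 and 208.7 CPM in HFD1 to HFD3, with full overlap. The contractile share of all 10 was 15.5%, 12.9% and 13.96% in NCD and 6.27%, 8.28% and 13.0% in HFD, where HFD3 passed NCD2. Within libraries, the log2 ratio of *Acta2* to *Rgs5* counts was -2.85, -2.64 and -2.94 in NCD1 to NCD3 and -4.18, -3.59 and -3.16 in HFD1 to HFD3. Each HFD ratio was thus below each NCD ratio, with no scaling between libraries involved. The same held for *Acta2* over *Pdgfrb*, while *Tagln* over *Rgs5*, *Acta2* over *Myh11* and *Acta2* over the endothelial tight junction gene *Cldn5* overlapped between the diets. These sums and ratios were not tested.

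**Figure D3:**
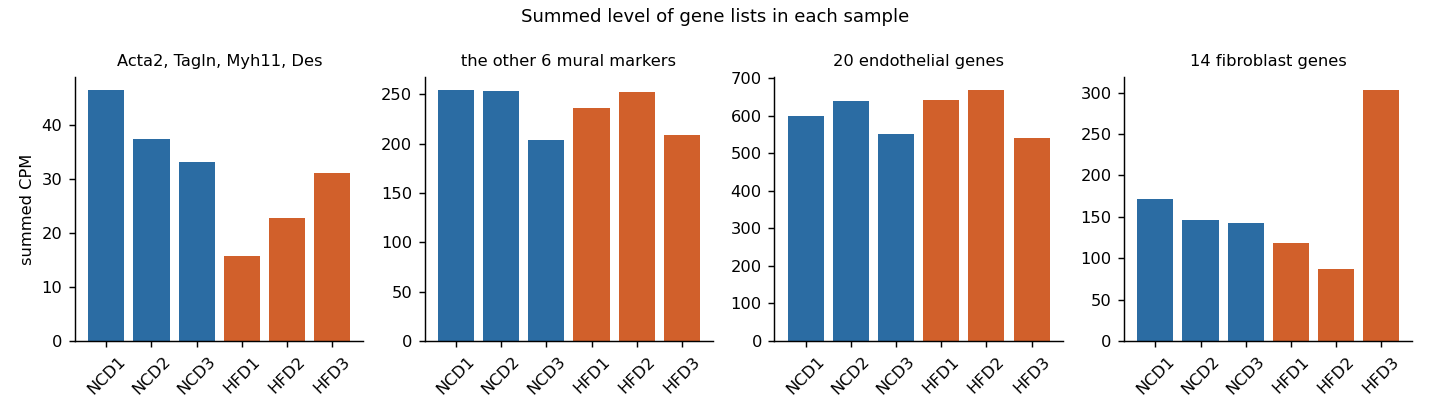
Summed CPM per sample of the contractile members, the other members the 20 endothelial genes and the 14 fibroblast genes (bars, 1 per sample, y axes starting at 0; NCD blue, HFD orange). The contractile sum is lower in every HFD sample, the sum of the other members overlaps, and HFD3 stands high in the fibroblast list.

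Other genes of smooth muscle had values on both sides of 0. Of 28 further contractile and smooth muscle genes 26 could be tested. Past the threshold were 0 upward and 1 downward, beside 1.01% and 0.888% of all genes tested. In log2 fold change 16 were below 0 and 10 above it, with a median of -0.064 beside 0.0032 over all genes tested. The samples of 3 of the 26 (*Susd5*, *Ldb3* and *Cnn2*) did not overlap and were lower under HFD, and 0 did so as higher, beside 3.24% of all genes tested in each direction. The gene past the threshold was *Susd5* (9.54 ± 1.35 CPM under NCD, 5.70 ± 1.17 CPM under HFD, SD, n = 3 each, log2 fold change -0.74, edgeR p = 0.0312, exact permutation p = 0.1). Below 0 without passing were also *Kcnmb1* (-0.52), a subunit of the calcium-activated potassium channel of smooth muscle, *Ldb3* (-0.43), *Tpm2* (-0.41), which codes for β-tropomyosin, *Pln* (-0.35) and *Casq2* (-0.30), both of calcium storage, and *Cnn2* (-0.26). Among partners of α-actin and myosin, the log2 fold change was -0.49 for *Cnn1*, the gene for calponin, -0.010 for *Myl9*, the regulatory myosin light chain, -0.075 for *Mylk*, the kinase of that chain, and 0.17 for *Cald1*, the gene for caldesmon. *Lmod1*, which codes for leiomodin, a nucleator of actin filaments in smooth muscle, went the other way at 1.08 (edgeR p = 0.0638, exact permutation p = 0.2) with overlapping samples. *Myl6* and *Crip1* are in the list although many cell types express them, and *Myl6* alone made up 35.7% of the list's summed CPM. *Actg2* and *Map3k7cl* were too low to test.

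Of 25 further pericyte genes tested, 0 were past the threshold upward and 1 downward, beside 1.01% and 0.888% of all genes tested. In log2 fold change 12 were above 0 and 13 below it, with a median of -0.0070. The samples of 1 gene did not overlap as higher and those of 1 as lower, beside 3.24% of all genes tested in each direction. The one was *Art3*, a gene of the ADP-ribosyltransferase family, at 3.47 ± 1.09 CPM under NCD against 1.57 ± 0.425 CPM under HFD (SD, n = 3 each, log2 fold change -1.15, edgeR p = 0.032, exact permutation p = 0.1). *Rgs4*, which neurons also express, made up 56.6% of this list's summed CPM. *Kcnj8*, the pore subunit that assembles with SUR2, had a log2 fold change of -0.16, and *Cspg4*, the gene of the NG2 proteoglycan, -0.097. The 3 further subunits of ATP-sensitive potassium channels, *Kcnj8* among them, had 0 genes past the threshold and a median of -0.16, which was -0.61 without HFD2 and 0.066 without HFD3.

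The genes that signal to mural cells also had values on both sides of 0. Among 11 PDGF ligands, receptors and anchoring genes, 0 were past the threshold upward and 1 downward, beside 1.01% and 0.888% of all genes tested. Their log2 fold changes ranged from -0.60 to 0.86 with a median of -0.034. *Angpt1*, the mural cell ligand of the endothelial receptor Tie2, was at 24.98, 18.0 and 21.4 CPM in NCD1 to NCD3 and at 14.5, 14.2 and 13.7 CPM in HFD1 to HFD3. No HFD sample reached an NCD sample, and the log2 fold change was -0.60 (standard error 0.23, edgeR p = 0.0221, exact permutation p = 0.1). *Pdgfb*, the ligand that recruits pericytes, was at 0.86 (edgeR p = 0.0565, exact permutation p = 0.2) on the same scale and did not pass, nor did the receptor gene *Pdgfra* at -0.52. Of 15 Notch ligands, receptors and targets none passed, 7 were above 0 and 8 below it in log2 fold change, and their median was -0.0031. Among the targets, *Heyl*, which mural cells express, was at -0.40, *Hey2* at 0.25 and *Hes5* at 0.22. The ligands *Jag1* and *Jag2* were at -0.15 and 0.23, and all 5 genes had overlapping samples.

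Serum response factor (SRF) and its coactivators of the myocardin family switch on contractile genes through the CArG box, a run of A and T between CC and GG. Of the 12 genes of this group, 8 could be tested, none was past the threshold, and the median was -0.26. With a sample left out the median ran from -0.30 (without NCD2) to -0.11 (without HFD2), and in limma on genes with any FPKM it was -0.062. *Srf* had a log2 fold change of -0.28, *Mrtfa* -0.45 and *Mrtfb* 0.05. *Klf4*, a repressor of contractile genes in smooth muscle, was at -1.003 with overlapping samples (edgeR p = 0.0596, exact permutation p = 0.2). *Myocd*, the coactivator found in smooth and heart muscle, had 1 to 26 counts per library and was not tested.

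Promoter windows of 6 of the 10 members were matched by symbol in RefSeq (GRCm38.p6): *Acta2*, *Abcc9*, *Vtn*, *Des*, *Rgs5* and *Notch3*. *Tagln*, *Myh11*, *Pdgfrb* and *Higd1b* were not matched. Both strands of the 250 bases before the annotated start were searched. An exact CArG box was in 0 of the 6 and in 1.47% of all 32851 promoters. A CArG box with a single G or C among its 6 middle bases was in *Acta2* alone among the 6, and in 7.24% of all promoters. The window of *Acta2* (chr19:34255374-34255623, minus strand) carries it at 2 places: CCCTATATGG from 84 to 75 bases before the annotated start, and CCTTGTTTGG from 34 to 25 bases before it. The start in RefSeq lies within the gene span given above from GENCODE, which begins further upstream. Most of this window thus lies inside that span, and exon bounds were not compared with it. CATTCC, the core bound by TEAD factors, was in the windows of *Abcc9*, *Acta2* and *Vtn* and in 12.6% of all promoters. TGGGAA, the core bound by the Notch partner RBPJ, was in the same 3 and in 21.6% of all promoters, and in *Acta2* one such match overlaps the end of the second CArG-like site. These matches describe the letters of the windows, and no binding was measured.

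Receptors and effectors through which vessel walls respond to vasoactive signals gave 0 of 18 genes past the threshold. In log2 fold change 7 were above 0 and 11 below it, from -0.56 to 0.41, with a median of -0.11. The samples of 2 of the 18 did not overlap as lower and those of 0 as higher, beside 3.24% of all genes tested in each direction. An edgeR p under 0.05 was found for 2 of the 18, and for 326 of the 14188 genes tested. Below the 1.5-fold limit, *Gucy1a1*, a subunit of the nitric oxide receptor that is prominent in mural cells, was at 65.8, 70.7 and 51.9 CPM in NCD1 to NCD3 and at 43.0, 46.1 and 42.3 CPM in HFD1 to HFD3. Its groups did not overlap (log2 fold change -0.52, edgeR p = 0.0213, exact permutation p = 0.1). *Ednrb*, the endothelin B receptor, which astrocytes express strongly, had a log2 fold change of -0.48 (edgeR p = 0.045, exact permutation p = 0.1) and no overlap either.

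**Figure D4:**
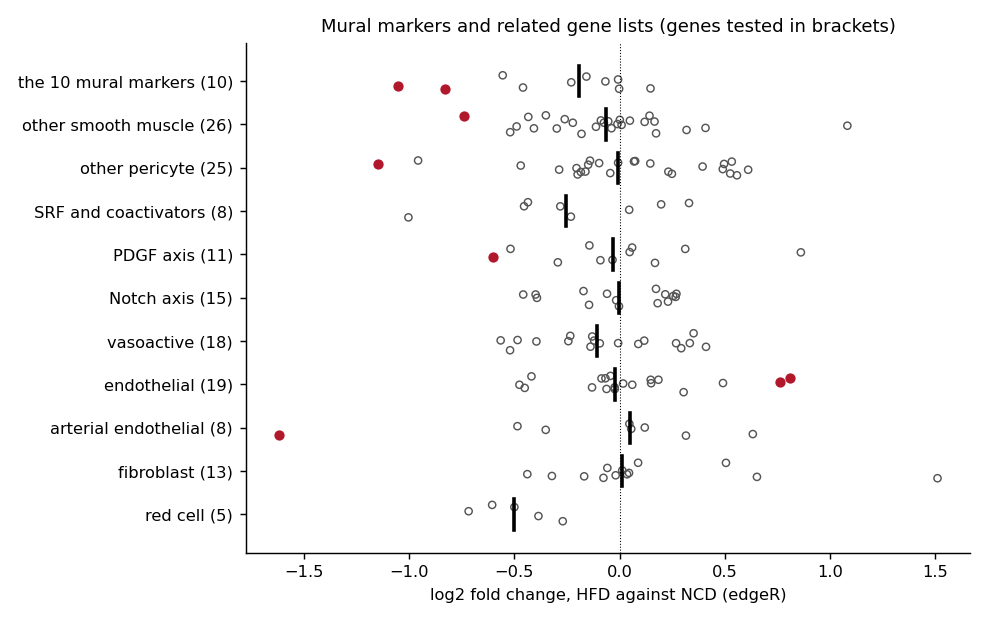
Log2 fold changes (HFD against NCD, x axis) of the tested genes of each list, with the median of the list as the thick black line and genes past p under 0.05 and 1.5-fold filled in red. The members' median of -0.19 lies among those of the other lists of the report, which run from -0.50 (red cell genes) to 0.32 (genes of ependyma and tanycytes).

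Markers of the cell types beside mural cells were read in the same libraries. Of 19 endothelial genes tested, 2 were past the threshold upward and 0 downward, beside 1.01% and 0.888% of all genes tested. The samples of 3 did not overlap as higher and those of 1 as lower, beside 3.24% of all genes tested in each direction. An edgeR p under 0.05 was found for 4 of the 19, and for 326 of the 14188 genes tested. The list's median was -0.023, and its summed CPM was 597 ± 45.3 in NCD and 616 ± 67.7 in HFD (SD, n = 3 each). The 2 genes past the threshold were *Ly6c1* (log2 fold change 0.81, edgeR p = 0.00433, exact permutation p = 0.1) and *Ly6a* (0.76, edgeR p = 0.00628, exact permutation p = 0.1). Both code for surface proteins of brain endothelium. *Cldn5* was lower at -0.48 (edgeR p = 0.0406, exact permutation p = 0.1), short of 1.5-fold. Of 8 arterial endothelial genes tested (9 listed), 0 were past the threshold upward and 1 downward, beside 1.01% and 0.888% of all genes tested. That one was *Gkn3*, a marker of arterial endothelium in brain, at 2.89, 5.70 and 6.32 CPM in NCD1 to NCD3 and at 0.497, 2.07 and 2.26 CPM in HFD1 to HFD3, with no overlap (log2 fold change -1.62, standard error 0.55, edgeR p = 0.0114, exact permutation p = 0.1). The list's median was 0.051, and *Clu*, which astrocytes also express, made up 59.3% of its summed CPM. Whether arterioles were sampled to a different extent in the 2 groups was not tested.

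The perivascular fibroblast genes summed to 171, 146 and 142 CPM in NCD1 to NCD3 and to 118, 87.5 and 304 CPM in HFD1 to HFD3, with *Dcn* the most abundant at 25.2% of the sum. HFD3 stood above every other library in this list, and it was also the highest HFD sample for every member but *Rgs5* and *Vtn*. The part of fibroblast content in these values was not tested. None of the 13 fibroblast genes tested was past the threshold (median 0.013), and without HFD3 the median was -0.81. Red blood cell genes, led by *Hba-a2* at 38.3% of their sum, summed to 782, 2488 and 1966 CPM in NCD1 to NCD3 and to 1687, 1156 and 824 CPM in HFD1 to HFD3, with all 5 below 0 in log2 fold change, none past the threshold and a median of -0.50, which was -0.14 without NCD2 and -0.86 without NCD1. Their part in the mural values was not tested.

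Microglial genes summed to 559 ± 56.0 CPM under NCD and 669 ± 8.17 CPM under HFD (SD, n = 3 each) without overlap, with *Ctss* the most abundant. None of the 11 was past 1.5-fold and the median was 0.22, but 3 of the 11 had an edgeR p under 0.05. Over all genes tested this held for 326 of 14188. The samples of 3 of the 11 did not overlap and were higher under HFD, beside 3.24% of all genes tested. In the lists of other neural cells, 1 of 10 astrocyte genes was past the threshold upward (*Gfap*, log2 fold change 0.88). Past it were also 1 of 9 oligodendrocyte genes downward (*Opalin*, -0.88) and 2 of 10 genes of ependyma and tanycytes upward (*Crym*, 0.89, and *Col23a1*, 0.91). Of 10 general neuron genes 0 passed in either direction, and 2 of 14 genes of ARC neurons passed upward (*Cartpt*, 0.75, and *Tac2*, 0.60). Over all genes tested, 1.01% passed upward and 0.888% downward. The median log2 fold change of the astrocyte genes was 0.015 (5 of 10 higher), that of the oligodendrocyte genes -0.22 (7 of 9 lower), that of the genes of ependyma and tanycytes 0.32 (8 of 10 higher), that of the neuron genes 0.0048 (5 of 10 higher) and that of the ARC neuron genes 0.20 (11 of 14 higher). With a sample left out, the oligodendrocyte median ran from -0.44 (without HFD2) to -0.069 (without HFD3). That of ependyma and tanycytes ran from 0.18 (without HFD1) to 0.57 (without NCD3). The ARC neuron median ran from 0.016 (without HFD3) to 0.35 (without HFD2), and the microglial one from 0.17 (without NCD1) to 0.37 (without NCD2). No gene of any list had an adjusted p under 0.05 in the edgeR fit, and no gene of the lists was at 0 in all libraries.

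Genes whose log2 CPM followed *Acta2* most closely over the 6 samples were *Cnn2* (Pearson's r = 0.981), *Ust* (0.958), *Wbp11* (0.955), *Dock3* (0.952), *Spty2d1* (0.952), *Zfp319* (0.948), *Ccn1* (0.943) and *Hip1r* (0.943), out of 11990 genes with a mean of at least 5 CPM. *Cnn2*, the gene for calponin 2, was in the list of contractile genes. It was at 8.49, 8.96 and 7.52 CPM in NCD1 to NCD3 and at 6.34, 7.39 and 7.15 CPM in HFD1 to HFD3, with a log2 fold change of -0.26 (edgeR p = 0.376, exact permutation p = 0.1). Those most like *Pdgfrb* were *Ispd* (r = 0.988), *Actr5* (0.987), *Akna* (0.977), *Vmac* (0.977), *Shroom3* (0.976), *Cyb5rl* (0.972), *Ern1* (0.965) and *Csf1r* (0.965). With 6 points that share their library and its depth, 43 genes reached r above 0.9 with *Acta2* and 92 with *Pdgfrb*, so these are descriptions of the libraries and not findings on the genes.

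**Figure D5:**
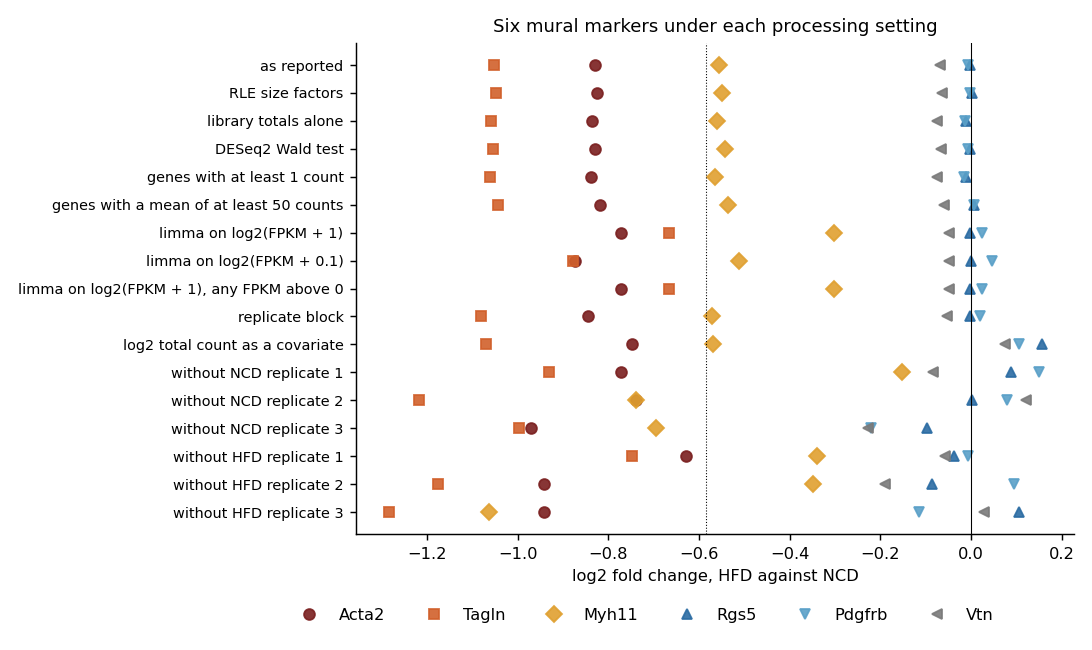
Log2 fold change (HFD against NCD, x axis) of 6 markers, each with its own symbol and color, under each way of processing the data and with each sample left out in turn (y axis); the solid line is 0 and the dotted line is 1.5-fold lower. *Acta2* and *Tagln* lie beyond the dotted line in every setting shown, *Myh11* moves from -1.06 to -0.15, and *Rgs5*, *Pdgfrb* and *Vtn* lie on both sides of 0.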

How the data were processed

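RNA of LCM-cut ARC tissue was sequenced in 3 NCD and 3 HFD samples, grouped by title. Per the study's methods, the authors compared reads with a ribosomal database (bowtie2), aligned them with HISAT2 and derived values with StringTie and RSEM. The genome build was mm10 per the labels, and tool versions are not given in the sources used here. The deposited table holds raw read counts per gene, which were the input of the main tests, and FPKM values that the authors scaled to transcript length and mapped reads, used for levels between genes and an alternative test. The authors' mean FPKM, log2 fold change, p-value and FDR columns were not used.

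Of 22322 identifiers, 22267 matched a symbol in GENCODE M21 (GRCm38). Genes passing filterByExpr (14188) were TMM-normalized and tested with edgeR's quasi-likelihood test, diet as the only term, with Benjamini-Hochberg adjustment over all of them. CPM uses TMM factors (0.967 to 1.04), and log2 CPM a prior count of 2. Exact permutation tests were two-sided. The biological coefficient of variation was 0.244. A floor of 3 counts covers counting error only.

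The members and the 17 other gene lists were chosen with earlier results of these data known. Named genes are all members, the genes of each list past p under 0.05 and 1.5-fold (up to 4), the 2 with most counts per list, the 8 most like *Acta2* and *Pdgfrb*, and near copies; others of the lists were named after their values were seen, and some that the rule names are not reported here. Shared stretches, coding identity and promoter motifs were computed from GENCODE M21 transcripts and RefSeq (GRCm38.p6) promoters. The fit was tested on simulated counts of 14205 genes for HFD against NCD, where it recovered 165 of 198 changed genes and called 4 others. The alternatives are given in the closing section. Python 3.11.15 (pandas 2.3.3, numpy 2.4.6, matplotlib 3.10.9) and R 4.3.3 were used, with edgeR 4.0.16, DESeq2 1.42.0, data.table (1.17.8) and limma 3.58.1.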

Additional observations from a re-analysis of the deposited data

How the results depend on the processing

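Under 16 settings, no member reached an adjusted p of 0.05 in any, and the log2 fold change of *Acta2* stayed below 0 in all 16 (-0.97 to -0.63). *Acta2* and *Tagln* were the members past the threshold in the fit with RLE size factors, library totals alone, DESeq2, a minimum of 1 count, a mean of at least 50 counts, the replicate block or the log2 total count as a covariate. In limma on log2(FPKM + 1), on log2(FPKM + 0.1) and on all genes with any FPKM, 1 member (*Acta2*) was, and the log2 fold change of *Tagln* was -0.67, -0.88 and -0.67. With each sample left out in turn, 0 (without HFD1) to 3 (without HFD3, *Myh11* added) were, and without NCD1 *Acta2* alone was. Of all genes tested, 1.34% were past the threshold without HFD1, 1.696% without HFD3, 1.62% without NCD1, 1.505% without NCD2, 4.23% without HFD2 and 6.78% without NCD3, and 1.06% to 2.65% in the other settings. The summed *Tagln* and *Pcsk7* counts were an alternative chosen after seeing the data. The cause of these changes was not tested.

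The count of genes with an adjusted p under 0.05, 8 as reported, was 19 with DESeq2, 15 with a minimum of 1 count, 5 with limma on either log2(FPKM + 1) or log2(FPKM + 0.1), 1 on any FPKM, 17 with the replicate block, 15 with the covariate, and 1 to 16 with a sample left out. The count past the study's threshold, 270 as reported, was 427 with a minimum of 1 count, 179 with a mean of at least 50, 376 with the block (250 of them shared), and 195 (without HFD1) to 982 (without NCD3) with a sample left out. The members' median was -0.19, and -0.41 (without HFD3) to -0.14 (without HFD2) with a sample left out, -0.093 with limma on log2(FPKM + 1), -0.11 with any FPKM and -0.31 with the covariate.

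Members near 0 changed sign. *Pdgfrb* was 0.0066 with a mean of at least 50 counts, 0.024 and 0.047 with FPKM + 1 and FPKM + 0.1, 0.024 with any FPKM, 0.019 with the replicate block and 0.11 with the covariate. *Rgs5* was 0.0018 with RLE, 0.0063 with a mean of at least 50 counts and 0.16 with the covariate. With the covariate *Vtn* was 0.076 and *Higd1b* -0.091. With a sample left out, the range was -0.22 to 0.15 for *Pdgfrb*, -0.097 to 0.11 for *Rgs5*, -0.23 to 0.12 for *Vtn*, -0.29 to 0.032 for *Abcc9*, -0.22 to 0.82 for *Higd1b*, -0.55 (without HFD3) to -0.036 (without HFD2) for *Notch3*, -0.81 (without NCD1) to -0.020 (without NCD2) for *Des*, -1.28 to -0.75 for *Tagln* and -1.06 to -0.15 for *Myh11*. *Des* was too low to be fitted in the settings with a mean of at least 50 counts or a mean FPKM of at least 0.5. Same-numbered samples deviated together with correlations of -0.012, 0.11 and 0.37, and HFD1 and HFD2 deviated most like an NCD sample of another number, so the numbers gave no pairing and were taken as names only, and under the block *Acta2* and *Tagln* remained the members past the threshold. *Des* rested on 8 to 25 counts per library, and the part of depth in its spread was not tested.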

Other observations

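The genes that took most counts in each list had the following log2 fold changes (HFD against NCD). The vascular lists were led by *Myl6* at 0.32 and *Tpm1* at 0.049 among the contractile genes, *Rgs4* at -0.044 and *Slc6a20a* at -0.47 among the pericyte genes, *Mrtfb* at 0.046 and *Mef2d* at -0.23 among SRF partners, *S1pr1* at -0.034 and *Cdh2* at 0.060 in the PDGF list, *Rbpj* at 0.27 and *Nrarp* at -0.46 in the Notch list, *Abcc8* at -0.39 and *Kcnj8* at -0.16 among potassium channel subunits, and *Rgs2* at 0.089 and *Rock2* at 0.33 among vasoactive genes. In the lists of other cell types they were *Slc2a1* at -0.043 and *Itm2a* at -0.086 for endothelium, *Clu* at 0.12 and *Stmn2* at 0.046 for arterial endothelium, *Dcn* at 0.65 and *Igf2* at -0.17 for fibroblasts, *Hba-a2* at -0.61 and *Hbb-bs* at -0.39 for red cells, *Ctss* at 0.50 for microglia, *Aldoc* at 0.053 and *Slc1a2* at 0.33 for astrocytes, *Mbp* at 0.0028 for oligodendrocytes, *Rarres2* at 0.26 and *Ccdc153* at -0.19 for ependyma and tanycytes, and *Snap25* at -0.22 and *Stmn3* at 0.17 for neurons. In ARC neurons they were *Cartpt*, given in the report at 0.75, and *Pomc* at -0.36. None of these but *Cartpt* was past the threshold of p under 0.05 and 1.5-fold in the edgeR fit.

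The ratio of the deposited FPKM to CPM should be near constant for a gene whose effective length does not vary between samples. It varied 1.06-fold between samples for *Rgs5* and 1.17-fold for *Acta2*, but 1.64-fold for *Tagln*, with HFD2 at 0.9999 and the other samples from 0.608 to 0.680, and 1.497-fold for *Notch3*, with NCD1 at 0.163, NCD2 at 0.180 and the other samples from 0.120 to 0.128. For *Tagln*, HFD2 lay above NCD2 in FPKM and below it in CPM.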
